A study of Mus musculus with 27 samples.

Results

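The mature microRNAs (miRNAs) miR-219 and miR-338 are best known from oligodendrocytes, the glial cells that make myelin in the brain. Every miRNA whose name begins with miR-219 or with miR-338- was followed, which gave 5 of the 844 miRNAs listed in the study: miR-219-5p, miR-219-1-3p, miR-219-2-3p, miR-338-3p and miR-338-5p. Small RNA had been sequenced in 27 libraries from C57BL/6 mice, and the labels used here give neither age nor any genetic change. In all, 3 tissues were compared with 2 libraries each: the suprachiasmatic nucleus (SCN), which holds the brain's central circadian clock, the hypothalamus and the cortex. The SCN was also sampled once at each of 11 zeitgeber times (ZT, hours counted from lights on), in steps of 4 h from ZT2 to ZT42. Another 6 libraries came from SCN neurons named AVP, VIP and CCK after a neuropeptide, with 2 libraries each and no statement of how the cells were collected. The last 4 came from SCN at CT18 (18 h of circadian time): 2 named LP, an abbreviation that the labels do not spell out in a study that also asked about light responses, and 2 named CTRL. Nothing says that replicates were separate animals, so p-values measure the spread between these libraries, which may be technical.

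miRNAs pair with messenger RNAs mainly through their seed, bases 2 to 8, and lower the stability or translation of those messengers. In mice, miR-219 and miR-338 are known to increase as oligodendrocyte precursors mature, and to repress factors that hold precursors back, among them Sox6, Hes5 and the receptor Pdgfra. In the mouse SCN, miR-219-1 has also been described as a target of the clock proteins CLOCK and BMAL1. miR-338 lies inside the gene Aatk, which encodes a kinase expressed in neurons, and in rat sympathetic neurons it is known to act on a mitochondrial messenger in axons.

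The mature sequences show which products can be told apart. They are those of RefSeq on build GRCm38.p6, written 5′ to 3′ with the seed in capitals, and miR-219-2-3p is named only.
miR-219a-5p: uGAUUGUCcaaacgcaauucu
miR-219a-1-3p: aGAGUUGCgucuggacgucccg
miR-338-3p: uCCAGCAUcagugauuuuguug
miR-338-5p: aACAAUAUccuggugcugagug
The files' miR-219-5p and miR-219-1-3p were matched to the RefSeq names with the letter a. These 4 seeds differed from each other, and 0 other entries among the 1679 mature mouse miRNAs searched shared any of them.

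The hairpins from which the arms are cut are shown because the ratio of arms is reported further on. Capitals mark the mature arms that RefSeq places in each hairpin.
Mir219a-2: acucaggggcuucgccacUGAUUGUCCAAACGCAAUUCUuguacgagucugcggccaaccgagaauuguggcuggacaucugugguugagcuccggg
Mir219a-1: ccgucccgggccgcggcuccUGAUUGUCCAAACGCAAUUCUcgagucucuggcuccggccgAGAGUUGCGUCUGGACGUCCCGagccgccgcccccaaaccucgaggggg
Mir338: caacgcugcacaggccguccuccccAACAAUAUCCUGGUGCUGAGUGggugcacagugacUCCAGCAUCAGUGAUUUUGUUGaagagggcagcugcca
The same 5p arm is present in both miR-219 hairpins, so reads of miR-219-5p cannot be assigned to either one, whereas the 3p arms carry different names. Mir219a-2 is at chr2:29845631-29845727 on the minus strand of GRCm38, 629 bp from the protein-coding gene Urm1, and the annotated miRNA Mir219b overlaps it on the opposite strand. Mir219a-1 is at chr17:34024983-34025092 on the minus strand, 303 bp from Ring1, and it overlaps an exon of the long non-coding RNA Gm26940 and, on the opposite strand, Mir219c. Mir338 is at chr11:120014765-120014862 on the minus strand, in an intron of Aatk on the same strand, with Mir3065 on the opposite strand. The files list no miR-219b or miR-219c.

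Levels are given in CPM (reads per 1000000 miRNA reads), obtained from the deposited signal, which the authors scaled to about 10000000 per library. The libraries held 469808 to 5133920 miRNA reads, and 3 reads, taken as the level that a count of 0 still allows, corresponded to 0.584 to 6.39 CPM. These limits cover counting error only. In bulk samples, fewer cells of a type and less RNA per cell cannot be told apart.

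In the tissue comparison, miR-219-2-3p had the highest mean level of the members in SCN (602 CPM) and miR-338-3p the highest in hypothalamus and in cortex, while miR-219-1-3p was the scarcest in each. Over all 17 libraries of SCN tissue the order was another, with a mean of 664 CPM for miR-338-3p, 595 CPM for miR-338-5p and 385 CPM for miR-219-2-3p. In these 6 libraries miR-338-3p ranked between 48 and 108 by level and miR-219-2-3p between 72 and 111, whereas miR-219-1-3p had at most 4 reads. Over all 27 libraries miR-219-1-3p reached 20 reads (4.3 CPM, at ZT38), and it was listed at 0 in both cortex libraries and all 6 neuron libraries. It therefore entered no comparison between groups. The other miRNAs were tested with limma on log2 values, with p-values adjusted by the Benjamini-Hochberg method over every miRNA tested.

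In the libraries of the tissue comparison, the SCN held less of all 4 miRNAs than the hypothalamus, and the size of the difference varied between the arms. miR-219-5p was 21.6-fold lower and miR-338-3p 5.43-fold lower in SCN, whereas miR-219-2-3p was 1.61-fold lower and miR-338-5p 1.55-fold lower. Against cortex, the SCN libraries of this comparison again had less miR-219-5p and miR-338-3p, but they had more miR-219-2-3p. The hypothalamus exceeded the cortex in all 4.

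miR-219-5p, the arm shared by both miR-219 hairpins, had 7.5 and 3.3 CPM in SCN, against 151.2 and 82.0 CPM in hypothalamus and 44.8 and 31.8 CPM in cortex. The SCN values rest on 17 and 12 reads, and both lie below every value of the other tissues. limma gave a log2 difference of -4.45 (SE 0.42) for SCN minus hypothalamus and of -2.90 (SE 0.42) for SCN minus cortex. Both SCN values were under the minimum of 10 CPM that a tested miRNA had to reach in 2 libraries, so miR-219-5p entered only through the tissues where it was high, and these differences are given as a description with no p. The hypothalamus stood above the cortex by 1.56 on the log2 scale (SE 0.42, adjusted p = 0.011, limma), a 3.04-fold ratio of means.

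miR-219-2-3p, the opposite arm of the Mir219a-2 hairpin, had 434.9 and 768.6 CPM in SCN, against 1018.6 and 916.3 CPM in hypothalamus and 328.2 and 281.5 CPM in cortex. The SCN values thus lay between those of the other tissues without overlap, and they were the more widely spread, with a mean of 602 ± 236 CPM (SD, n = 2). limma gave -0.74 for SCN minus hypothalamus (SE 0.23, adjusted p = 0.018) and 0.93 for SCN minus cortex (SE 0.23, adjusted p = 0.0045). For hypothalamus minus cortex the log2 difference was 1.67 (SE 0.23, adjusted p = 0.00025, limma), or 3.17-fold.

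miR-338-3p, described as a brake on the inhibitors of oligodendrocyte maturation, had 386.7 and 516.3 CPM in SCN, against 2656.6 and 2248.3 CPM in hypothalamus and 1407.9 and 996.3 CPM in cortex. Each SCN library was below each cortex library, and each cortex library below each hypothalamus library. The log2 differences from limma were -2.45 (SE 0.19, adjusted p = 7.3e-06) for SCN minus hypothalamus, -1.41 (SE 0.19, adjusted p = 1e-04) for SCN minus cortex and 1.05 (SE 0.19, adjusted p = 0.0013) for hypothalamus minus cortex.

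miR-338-5p, the opposite arm of the same hairpin, had 174.6 and 262.6 CPM in SCN, against 358.9 and 319.5 CPM in hypothalamus and 172.0 and 148.5 CPM in cortex. The lower SCN library lay just above the higher cortex library, and all 4 of these libraries were below the hypothalamus. For SCN minus hypothalamus limma gave -0.66 (SE 0.20, adjusted p = 0.015). SCN minus cortex was 0.42 (95% interval -0.03 to 0.87, adjusted p = 0.075, limma), which did not pass the threshold of 0.05. Hypothalamus minus cortex was 1.08 (SE 0.20, adjusted p = 0.0013, limma).

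**Figure D1:**
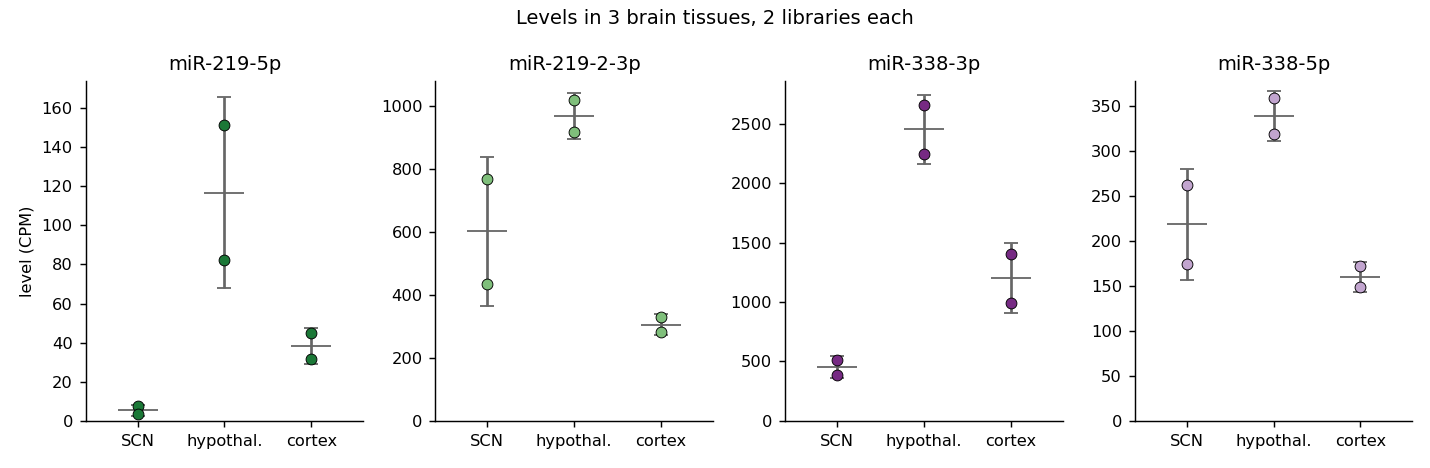
Level in CPM of miR-219-5p, miR-219-2-3p, miR-338-3p and miR-338-5p in SCN, hypothalamus and cortex (points are libraries, bars are the mean ± SD, n = 2 each). SCN is lowest for miR-219-5p (mean 5.4 CPM) and miR-338-3p (mean 452 CPM), and lies between hypothalamus and cortex for miR-219-2-3p and miR-338-5p.

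These changes stood among many. Of 378 miRNAs tested, 162 (42.9%) were lower in SCN than in hypothalamus and 106 (28.0%) were higher. miR-219-2-3p, miR-338-3p and miR-338-5p were among those lower. Against cortex, 147 (38.9%) were lower in SCN, with miR-338-3p among them, and 156 (41.3%) were higher, with miR-219-2-3p among them. Both counts of lower miRNAs include miR-219-5p, which was under the minimum in SCN and for which no p is used. In hypothalamus 158 (41.8%) were higher than in cortex, all 4 miRNAs among them, and 62 (16.4%) were lower. The median log2 difference of all tested miRNAs was -0.29 for SCN minus hypothalamus, 0.06 for SCN minus cortex and 0.41 for hypothalamus minus cortex.

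Scaling each library by the median ratio of its miRNAs, rather than by its total, moved the median of all tested miRNAs by 0.29 for SCN minus hypothalamus and by -0.34 for hypothalamus minus cortex. Under that scaling, SCN minus hypothalamus was -4.17 for miR-219-5p and -2.16 for miR-338-3p, the second with adjusted p = 8.4e-06 (limma). The same difference was -0.45 for miR-219-2-3p (adjusted p = 0.12) and -0.37 for miR-338-5p (adjusted p = 0.14), so that both calls were lost. edgeR and DESeq2 on the recovered reads did not call these miRNAs either. Without SCN replicate 1, the differences were -0.33 (adjusted p = 0.072) and -0.37 (adjusted p = 0.074), while without that library miR-338-5p became higher in SCN than in cortex by 0.72 (adjusted p = 0.004, limma). Where 1 library of a tissue is left out, the single library that remains is assumed to vary like those of the other tissues. Without hypothalamus replicate 1, miR-338-5p in SCN minus hypothalamus was -0.58 (adjusted p = 0.056) and miR-219-5p in hypothalamus minus cortex was 1.12 (adjusted p = 0.062). Without cortex replicate 2, miR-219-5p in hypothalamus minus cortex was 1.31 (adjusted p = 0.075).

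**Figure D2:**
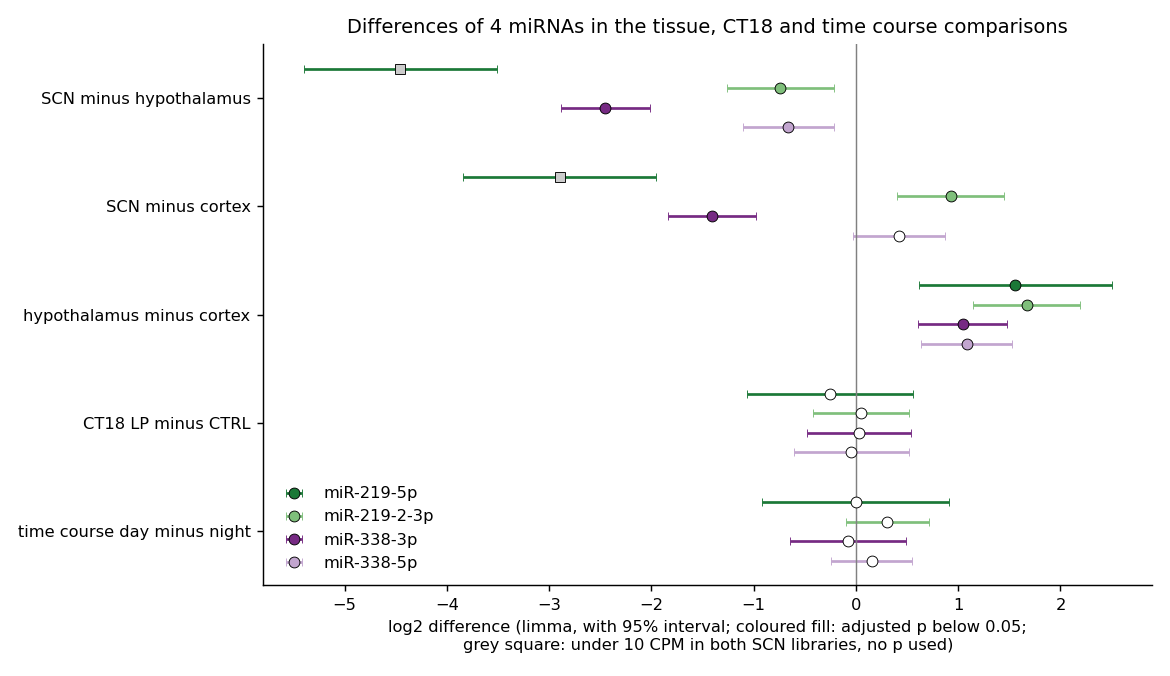
Log2 difference with its 95% interval from limma for 4 miRNAs in the 3 tissue comparisons, CT18 LP minus CTRL, and time course day minus night (coloured points have an adjusted p below 0.05, and grey squares mark miR-219-5p where both SCN libraries were under 10 CPM and no p is used). miR-219-5p and miR-338-3p are far below 0 in both SCN comparisons, all 4 are above 0 in hypothalamus minus cortex, and all 8 intervals at CT18 and in the time course include 0.

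In the tissue comparison, the balance between the arms separated the SCN from both other tissues, and in opposite directions for miR-338 and miR-219. For miR-219 this did not extend to the other SCN libraries, since 4 of the 11 time course ratios lay within the range of hypothalamus and cortex. The ratio comes from within a library and does not change with the scaling. The level of miR-338-3p was 2.21 and 1.97 times that of miR-338-5p in SCN, against 7.40 and 7.04 times in hypothalamus and 8.19 and 6.71 times in cortex. The SCN ratios were thus about 3.46-fold lower than in hypothalamus (log2 -1.79, SE 0.18, adjusted p = 0.00045) and 3.55-fold lower than in cortex (log2 -1.83, SE 0.18, adjusted p = 0.00037) by limma over 110 hairpins with both arms. This test of arm ratios was added after the values were seen, so its p-values do not come from a planned comparison.

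For miR-219, the level of miR-219-2-3p over miR-219-5p was 58.0 and 233 in SCN, against 6.74 and 11.2 in hypothalamus and 7.33 and 8.85 in cortex. The SCN ratios were higher and did not overlap with the others, by a log2 difference of 3.71 (SE 0.61) from hypothalamus and of 3.82 (SE 0.61) from cortex (limma). Leaving out 1 library gave 2.72 to 4.70 and 2.83 to 4.81, with the lowest values without SCN replicate 2 and the highest without SCN replicate 1. The ratios in SCN rest on 17 and 12 reads of miR-219-5p, which is under the minimum there and entered through the other tissues, so these differences are a description with no p. That arm can come from either miR-219 hairpin. Hypothalamus minus cortex was -0.04 for miR-338 (95% interval -0.47 to 0.39) and 0.11 for miR-219 (95% interval -1.35 to 1.57), with adjusted p = 0.88 for each by limma.

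Shifts of the arm balance were common between SCN and the other tissues. The median log2 difference of 3p over 5p over all hairpins tested was 0.40 for SCN minus hypothalamus and 0.50 for SCN minus cortex. It was 0.11 for hypothalamus minus cortex. In the SCN comparisons the miR-219 difference had the sign of these medians, and the miR-338 difference had the opposite sign. Of the 110 hairpins, 55 (50.0%) were called between SCN and hypothalamus and 60 (54.5%) between SCN and cortex. Between hypothalamus and cortex 4 (3.64%) were called. Both SCN counts include miR-219, whose 5p arm was under the minimum in SCN and for which no p is used. How many other called hairpins had an arm under the minimum in SCN was not counted, so these shares are a description. Ordered by p in this added test, miR-338 was number 6 in SCN against hypothalamus and number 7 in SCN against cortex.

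Base composition moved with the tissue differences. Among the 322 of 378 tested miRNAs (85.2%) with a RefSeq sequence, Pearson's r between GC content and the log2 difference was 0.62 for SCN minus hypothalamus, 0.49 for SCN minus cortex and 0.14 for hypothalamus minus cortex. These values run across miRNAs, which are not independent replicates. For SCN minus hypothalamus the median was -0.84 for miRNAs at or under the median GC content of 47.6%, and 0.46 for those above it. The GC content was 38.1% in miR-219-5p, 40.9% in miR-338-3p and 45.5% in miR-338-5p, all under that median. The part of base composition in the differences reported here was not tested.

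Other miRNAs linked to the oligodendrocyte lineage were also mostly lower in SCN. Of 10 tested miRNAs of an 11-member list, 7 were lower and 2 higher in SCN than in hypothalamus, and 9 were lower and 1 higher in SCN than in cortex. Over all tested miRNAs 42.9% were lower and 28.0% higher in SCN than in hypothalamus, and 38.9% lower and 41.3% higher in SCN than in cortex. Of those lower in each comparison, 2 of the list (miR-17-5p and miR-19b-3p) were under 10 CPM in both SCN libraries and entered through the other tissues. The list's median log2 difference was -0.89 and -1.22, against -0.29 and 0.06 over all tested miRNAs. In hypothalamus against cortex, 6 of the list were lower, 1 was higher and 3 did not pass, beside 16.4% lower and 41.8% higher over all tested miRNAs, with a median of -0.53 against 0.41 over all.

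Of that list, miR-27a-3p, a member of the miR-23a cluster, averaged 346 ± 34.4 CPM in SCN, 939 ± 55.6 CPM in hypothalamus and 1472 ± 78.6 CPM in cortex (SD, n = 2 each). The levels did not overlap between tissues, with log2 -1.44 for SCN minus hypothalamus (adjusted p = 9.9e-06) and -2.09 for SCN minus cortex (adjusted p = 4.3e-07, limma). miR-23a-3p, of the same cluster, averaged 395 ± 6.29 CPM in SCN, 584 ± 44.5 CPM in hypothalamus and 956 ± 37.5 CPM in cortex. miR-146a-5p, which is also in the microglial and leukocyte list, averaged 1476 ± 95.4 CPM in SCN, 2302 ± 168 CPM in hypothalamus and 3049 ± 149 CPM in cortex. All 3 were called lower in SCN in both comparisons, as was miR-145a-5p, which is also in the vascular list and averaged 511 ± 75.9 CPM in SCN, 1123 ± 55.9 CPM in hypothalamus and 1145 ± 18.95 CPM in cortex. Going the other way, miR-125a-3p was higher in SCN than in hypothalamus (log2 1.38, adjusted p = 0.0023) and in cortex (log2 2.27, adjusted p = 6.8e-05, limma). miR-184-3p was higher in SCN than in hypothalamus (log2 1.03, adjusted p = 0.0075) but lower than in cortex (log2 -1.03, adjusted p = 0.0057, limma).

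Markers of other cell types moved in the same tissues. The 5 vascular miRNAs summed to 3910 to 3933 CPM in SCN, against 11100 to 11818 CPM in hypothalamus and 11013 to 11550 CPM in cortex, and all 5 were called lower in SCN in both comparisons. The 8 neuronal miRNAs summed to 36735 to 41495 CPM in SCN, 56323 to 59190 CPM in hypothalamus and 158309 to 164660 CPM in cortex, with 7 lower and 1 higher in SCN in each comparison. Of the microglial and leukocyte list 3 of 4 tested were lower and 1 higher in SCN, as of the red cell list, in each comparison. The choroid plexus and ciliated cell list went the other way, with 3 higher, 1 lower and 1 not called in SCN against hypothalamus and 5 of 5 higher against cortex. Of these calls, 1 of the microglial and leukocyte list and 2 of the red cell list were under 10 CPM in both SCN libraries, and 1 and 3 of the choroid plexus list were under it in hypothalamus and in cortex. The part of cell composition in the differences of miR-219 and miR-338 was not tested.

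In the 6 libraries of AVP, VIP and CCK neurons the miR-219 arms had no reads, while both arms of miR-338 were present at up to 654 CPM. Reads of miR-338 were thus not confined to libraries that the labels give as whole tissue, and the 5 miRNAs are called by their names here rather than by a cell type.

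All miR-219 arms were at 0 of 1445661 reads summed over the AVP libraries, 0 of 5598886 over the VIP libraries and 0 of 957168 over the CCK libraries. With the reads of the libraries of each type summed as if they were 1 sample, these zeros allow a level of up to 2.08 CPM in AVP, 0.536 CPM in VIP and 3.13 CPM in CCK neurons. In the 17 libraries of SCN tissue, miR-219-2-3p ran from 179.6 to 768.6 CPM with a median of 314.8. Against the lowest of these and by the limits of the summed reads, it was at least 86.5-fold lower in AVP, 335-fold lower in VIP and 57.3-fold lower in CCK neurons. The limits of single libraries are higher and would give smaller folds. Zeros were common in neurons, where a library listed 215 to 312 of the 844 miRNAs, against 552 to 635 in the tissue libraries. The zeros of miR-219 are thus not particular to it. miR-219-5p ran from 3.3 to 37.2 CPM with a median of 18.7 in SCN tissue. In single neuron libraries a count of 0 allows up to 1.07 to 6.39 CPM, which reaches above the lowest of these, so no fold is given for miR-219-5p. No test was made between neurons and tissue. The labels do not say whether they were sequenced together, so a batch and the kind of sample cannot be told apart.

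miR-338-3p had 134.3 and 20.9 CPM in AVP neurons, 595.2 and 242.1 CPM in VIP neurons and 443.1 and 509.4 CPM in CCK neurons. The AVP libraries were the lowest, and the VIP and CCK libraries overlapped. The AVP values rest on 72 and 19 reads. limma gave -2.84 for AVP minus VIP (SE 1.03, adjusted p = 0.11), -3.16 for AVP minus CCK (SE 1.03, adjusted p = 0.12) and -0.32 for VIP minus CCK (SE 1.03, adjusted p = 0.90). The last turned to 0.50 under median-ratio scaling, which moved the median of all tested miRNAs in VIP minus CCK by 0.76. It moved that median by -0.31 in AVP minus VIP and by 0.16 in AVP minus CCK.

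miR-338-5p had 0 and 24.2 CPM in AVP neurons, 653.9 and 514.0 CPM in VIP neurons and 187.5 and 232.1 CPM in CCK neurons. The 3 neuron types did not overlap, with VIP highest and AVP lowest, but each type has only 2 libraries. How often other miRNAs separate in this way was not counted. limma gave -8.54 for AVP minus VIP (SE 2.68, adjusted p = 0.072), -7.06 for AVP minus CCK (SE 2.68, adjusted p = 0.17) and 1.47 for VIP minus CCK (95% interval -5.61 to 8.56, adjusted p = 0.75). With 1 AVP library at 0, the fitted AVP differences depend on the pseudocount, and AVP minus VIP was -6.85 (adjusted p = 0.025) with a pseudocount of 10.

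None of the miR-338 differences between neuron types was called by limma at the threshold, whereas 32.8% of the 305 miRNAs tested were called in AVP against VIP, 16.7% in AVP against CCK and 29.8% in VIP against CCK. The shares of AVP against CCK and of VIP against CCK rest on single libraries, since they depended strongly on which library was left out. That of AVP against VIP did so less. At an unadjusted p below 0.05 both arms passed in AVP against VIP, and miR-338-3p alone in AVP against CCK. edgeR called miR-338-5p in AVP against VIP (log2 -6.07, adjusted p = 0.03). DESeq2 called both arms in AVP against VIP (-3.04 for 3p, adjusted p = 0.0046, and -6.15 for 5p, adjusted p = 9.4e-08) and in AVP against CCK. Without AVP replicate 1, miR-338-3p was -4.18 (adjusted p = 0.032) and miR-338-5p -4.58 (adjusted p = 0.014) in AVP minus VIP by limma, where the single AVP library is assumed to vary like the VIP and CCK libraries.

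Neuronal miRNAs were themselves lower in the neuron libraries than in SCN tissue. The 8 neuronal miRNAs summed to 6009 to 19580 CPM in the neurons, with miR-137-3p at 0 in both AVP libraries, against 36735 to 79647 CPM in the 17 SCN tissue libraries. The vascular list summed to 3.3 to 176.5 CPM in neurons, against 929 to 6331 CPM in SCN tissue, and the other oligodendrocyte-lineage miRNAs to 401 to 1403 CPM against 2498 to 4079 CPM. The microglial and leukocyte list summed to 117 to 469 CPM in neurons, against 1558 to 2805 CPM in SCN tissue. The red cell list overlapped, with 943 to 2164 CPM in neurons, against 486 to 1402 CPM in SCN tissue, and 3 of its 4 members were at 0 in all AVP and CCK libraries. The choroid plexus and ciliated cell list overlapped as well, with 83.8 to 9453 CPM in neurons, against 1957 to 8914 CPM in SCN tissue, and 4 of its 7 members were at 0 in all 6 neuron libraries. Of the oligodendrocyte-lineage list, miR-32-5p was at 0 in all 6 neuron libraries. Whether the miR-338 reads came from the neurons themselves was not tested.

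**Figure D3:**
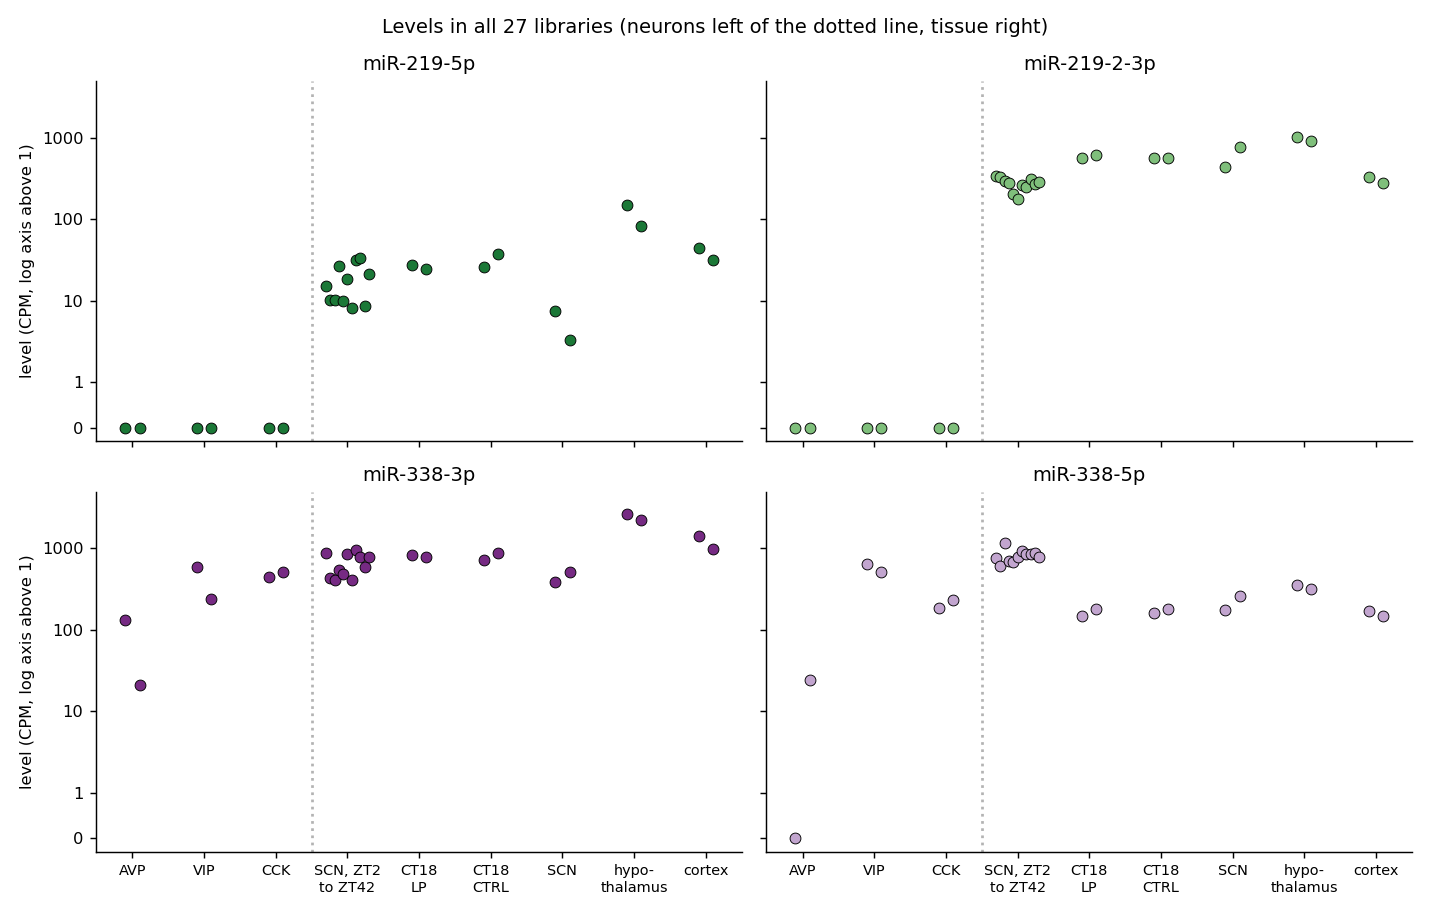
Level in CPM (log axis above 1, with 0 drawn at the bottom) of 4 miRNAs in every library, with AVP, VIP and CCK neurons left of the dotted line and tissue right of it. Both miR-219 arms are at 0 in all 6 neuron libraries, while miR-338-3p runs from 20.9 to 595.2 CPM there and miR-338-5p from 0 to 653.9 CPM.

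By their labels the SCN tissue libraries fall into 3 sets, and the members differed between them. miR-338-5p was 602 to 1182 CPM in the time course, against 148 to 182 CPM at CT18 and 175 to 263 CPM in the SCN libraries of the tissue comparison. miR-219-2-3p ran from 180 to 341 CPM in the time course, against 567 to 611 CPM at CT18 and 435 to 769 CPM in the tissue comparison. miR-338-3p ran from 406 to 954 CPM in the time course, which overlapped with the 714 to 886 CPM at CT18 and with the 387 to 516 CPM of the tissue comparison, while the last of these lay below CT18 without overlap. miR-219-5p was 8.3 to 33.2 CPM in the time course and 24.5 to 37.2 CPM at CT18, all above the 7.5 and 3.3 CPM of the tissue comparison. Set against the hypothalamus libraries, every SCN library was lower for miR-219-5p, miR-219-2-3p and miR-338-3p, but for miR-338-5p all 11 time course libraries were above the 358.9 and 319.5 CPM of hypothalamus. Set against the cortex libraries, every SCN library was lower only for miR-338-3p. The time course values of miR-219-2-3p reached below the 328.2 and 281.5 CPM of cortex, while those at CT18 were above. miR-219-5p overlapped with the 44.8 and 31.8 CPM of cortex in the time course and at CT18. For miR-338-5p the time course libraries were above the 172.0 and 148.5 CPM of cortex, while CT18 overlapped with them. A set may be its own batch, so time, light conditions and batch cannot be told apart, and no test was made between sets.

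The arm balance of miR-338 differed between these sets as well. miR-338-3p over miR-338-5p was 0.344 to 1.15 in the 11 time course libraries with a median of 0.780, and it was 4.29 to 5.71 in the 4 CT18 libraries, all above the 2.21 and 1.97 of the SCN tissue comparison. In neurons the ratio was 0.864 in the single AVP library with reads of both arms, 0.910 and 0.471 in VIP neurons and 2.36 and 2.19 in CCK neurons. miR-219-2-3p over miR-219-5p was 7.67 to 32.0 in the time course with a median of 20.4, and 15.5 to 24.9 at CT18, all below the 58.0 and 233 of the tissue comparison. The miR-338 ratio of SCN tissue was below the 6.71 to 8.19 of hypothalamus and cortex in all 3 sets, while the miR-219 ratio of the time course overlapped with theirs.

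**Figure D4:**
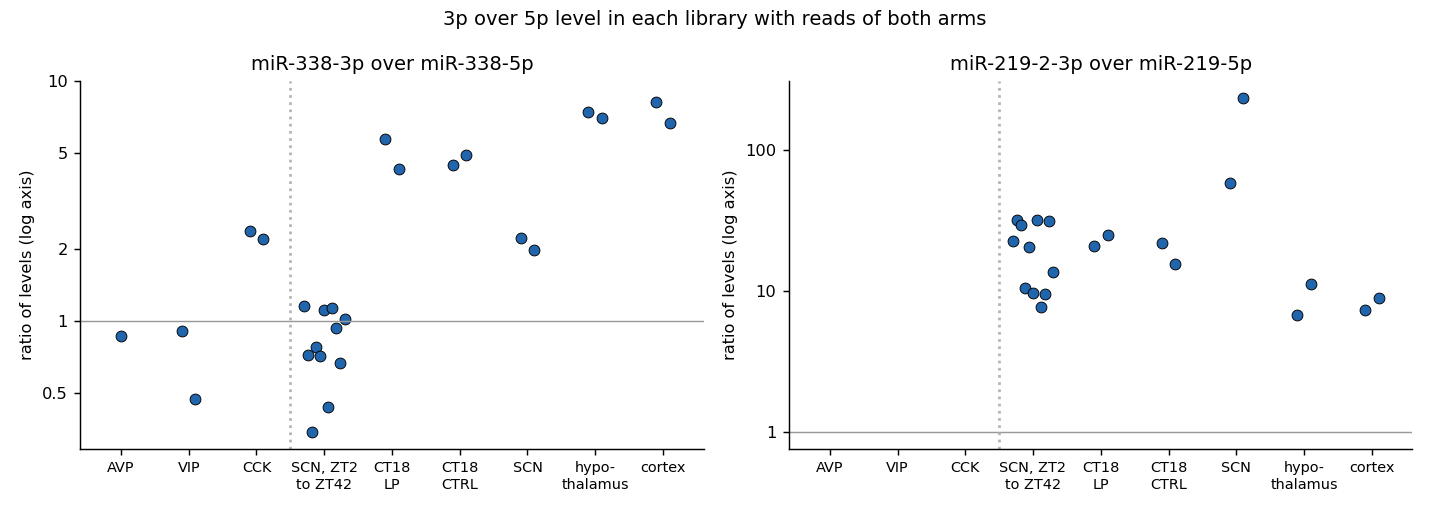
Ratio of the level of the 3p arm to that of the 5p arm (log axis) in each library with reads of both, for miR-338 and for miR-219. The miR-338 ratio is 6.71 to 8.19 in hypothalamus and cortex and 0.344 to 5.71 in all SCN tissue, and the miR-219 ratio is highest in the 2 SCN libraries of the tissue comparison (58.0 and 233).

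At CT18 the LP and CTRL libraries overlapped for all 4 tested miRNAs. miR-219-5p had 27.7 and 24.5 CPM in LP, against 25.9 and 37.2 CPM in CTRL, and miR-219-2-3p had 571.0 and 610.8 CPM in LP, against 567.1 and 575.0 CPM in CTRL. miR-338-3p had 843.4 and 780.7 CPM in LP, against 714.0 and 885.8 CPM in CTRL, and miR-338-5p had 147.8 and 181.8 CPM in LP, against 159.3 and 179.7 CPM in CTRL.

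For LP minus CTRL, limma gave log2 differences of -0.25 for miR-219-5p (95% interval -1.07 to 0.56), 0.05 for miR-219-2-3p (-0.42 to 0.52), 0.03 for miR-338-3p (-0.48 to 0.54) and -0.05 for miR-338-5p (-0.61 to 0.52), each with adjusted p = 0.99. Of 317 miRNAs tested, 0 (0%) were called by limma, by edgeR or by DESeq2, and 1 had an unadjusted p below 0.05. Leaving out LP replicate 2 raised the limma count to 21, with 0 of these 4 among them. The arm ratio changed by 0.07 for miR-338 and by 0.30 for miR-219 on the log2 scale (adjusted p = 0.95 each, limma), with 0 of 80 hairpins (0%) called.

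No 24 h rhythm of these miRNAs was detected in the time course, which holds 1 library per time. miR-219-5p went through 8.3 CPM at ZT26 and 33.2 CPM at ZT34, with a median of 15.1, and miR-219-2-3p through 179.6 CPM at ZT22 and 341.2 CPM at ZT2, with a median of 279.9. miR-338-3p ranged between 406.3 CPM at ZT10 and 954.3 CPM at ZT30, with a median of 586.7, and miR-338-5p between 601.9 CPM at ZT6 and 1182.4 CPM at ZT10, with a median of 776.3. miR-219-2-3p was lower at each step from ZT2 to ZT22, and in the second cycle it stayed between 247.1 and 314.8 CPM.

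The cosine fits with a 24 h period gave log2 amplitudes of 0.24 for miR-219-2-3p, 0.21 for miR-219-5p, 0.16 for miR-338-3p and 0.11 for miR-338-5p, each with adjusted p = 0.95 (limma). The median amplitude over all 357 miRNAs tested was 0.24. Of these, 0 (0%) were called rhythmic by limma, edgeR or DESeq2, and 6 had an unadjusted p below 0.05 with limma.

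Libraries taken by day (ZT2, 6, 10, 26, 30 and 34) overlapped those taken by night for all members. miR-219-2-3p averaged 299 ± 37.1 CPM by day (SD, n = 6) and 244 ± 49.5 CPM by night (SD, n = 5), and its log2 difference was 0.31 (95% interval -0.10 to 0.72, adjusted p = 0.73, limma). It was -0.003 for miR-219-5p (95% interval -0.92 to 0.91), -0.08 for miR-338-3p (-0.65 to 0.49) and 0.16 for miR-338-5p (-0.24 to 0.55). Again 0 of 357 miRNAs (0%) were called by limma, edgeR or DESeq2, and 20 had an unadjusted p below 0.05 with limma.

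Libraries taken 24 h apart differed by up to 3.22 times for the 4 tested miRNAs, and by up to 4.75 times for miR-219-1-3p, which had 20 reads or fewer. miR-219-5p at ZT30 was 3.13 times its level at ZT6, and at ZT38 it was 0.325 times its level at ZT14. miR-338-3p at ZT30 was 2.21 times its level at ZT6, and at ZT26 it was 0.461 times its level at ZT2. For miR-219-2-3p the later library was 0.751 to 1.42 times the earlier one, and for miR-338-5p 0.721 to 1.40 times. Each pair rests on single libraries.

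**Figure D5:**
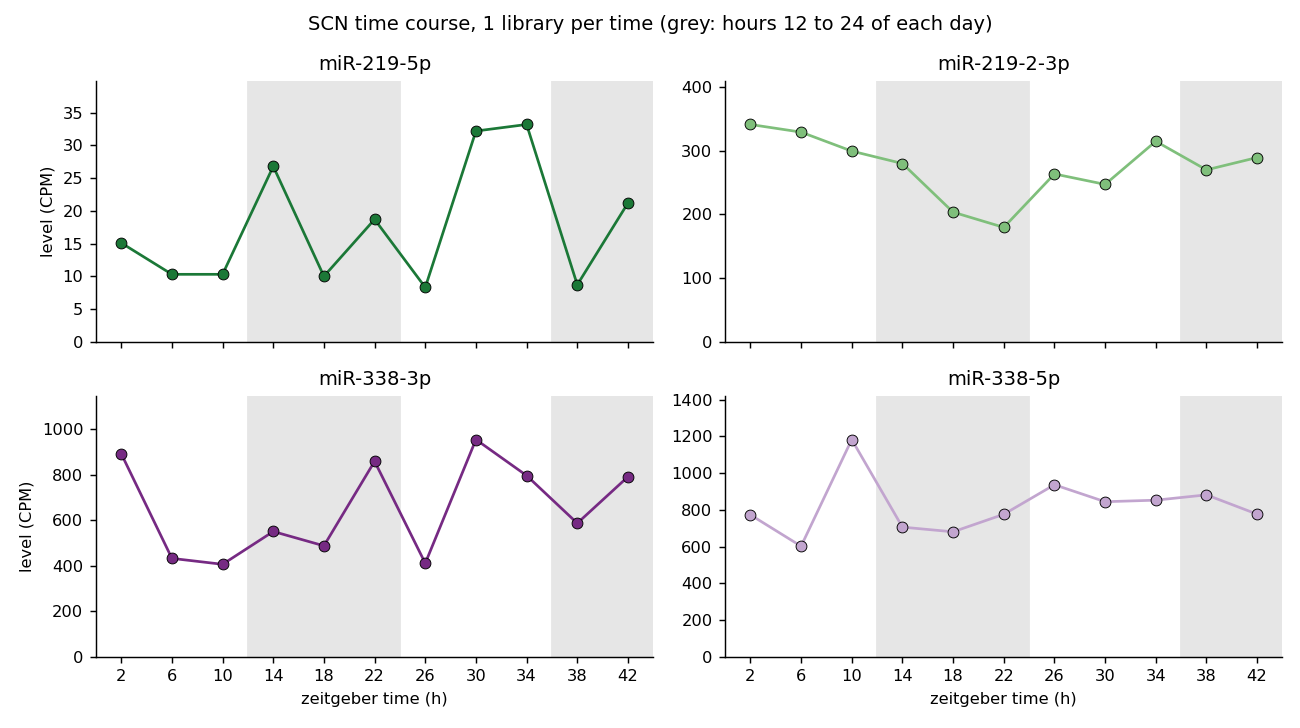
Level in CPM against zeitgeber time in h for 4 miRNAs in the SCN time course, 1 library per time, with hours 12 to 24 of each day in grey. miR-219-5p and miR-338-3p are both high at ZT30 (32.2 and 954.3 CPM) and both low at ZT26 (8.3 and 410.9 CPM), while miR-219-2-3p is lowest at ZT22 (179.6 CPM). The highest miR-219-5p value is at ZT34 (33.2 CPM), and at ZT2 miR-338-3p is high (892.2 CPM) with miR-219-5p at 15.1 CPM.

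Over the 11 time course libraries, miR-219-5p and miR-338-3p had the highest Pearson's r of the 10 pairs of members. Pearson's r was 0.73 (permutation p = 0.016) and Spearman's rho 0.64 (permutation p = 0.04), and over the 10 pairs the adjusted p was 0.16 and 0.38. Without ZT30 and ZT34, the libraries farthest from the median of miR-219-5p, r was 0.62. By the same step miR-219-1-3p with miR-219-2-3p came to 0.85 without ZT2 and ZT38, against 0.31 with them. Between the arms of one hairpin, r was -0.12 between miR-338-3p and miR-338-5p (permutation p = 0.73) and 0.03 between miR-219-2-3p and miR-219-5p (permutation p = 0.95). Of the 10 pairs, 0 passed after adjustment, and 1 had an unadjusted p below 0.05.

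No member had its opposite arm among the 3 miRNAs most like it in the time course. Ranked by Pearson's r of log2 values over the 11 libraries, as a description, the closest to miR-219-5p were miR-24-2-5p (r = 0.94), miR-27a-3p (r = 0.84) and miR-153-3p (r = 0.84), and the closest to miR-338-3p were miR-544-5p (r = 0.96), miR-153-3p (r = 0.94) and miR-136-3p (r = 0.91). Those closest to miR-219-2-3p were miR-325-5p (r = 0.88), miR-664-5p (r = 0.85) and miR-181b-5p (r = 0.80), and to miR-338-5p they were miR-30b-3p (r = 0.72), miR-146a-5p (r = 0.69) and miR-224-5p (r = 0.67). miR-219-1-3p, with 2 to 20 reads a library, was closest to miR-370-3p (r = 0.61), miR-151-5p (r = 0.61) and miR-671-3p (r = 0.55). All values of a library share its depth and its scaling.

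Over all 27 libraries, miR-219-2-3p was closest to miR-490-3p (r = 0.996), miR-145a-3p (r = 0.99) and miR-325-5p (r = 0.99), and miR-219-5p to miR-106b-5p (r = 0.98), miR-876-5p (r = 0.98) and miR-350-3p (r = 0.98). For miR-338-3p they were miR-137-3p (r = 0.87), miR-362-5p (r = 0.86) and miR-199a-5p (r = 0.85), and for miR-338-5p miR-652-3p (r = 0.92), miR-664-3p (r = 0.92) and miR-544-5p (r = 0.91). miR-219-1-3p, at no more than 20 reads, gave r = 0.89 with miR-216b-5p, 0.87 with miR-217-5p and 0.87 with miR-448-5p. Neurons and tissue lie apart for the miR-219 arms, and that split enters these values.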

How the data were processed

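The authors deposited 1 table per library with a signal per mature miRNA. Per the deposited values themselves this signal is reads scaled to a total of about 10000000 and listed as whole numbers, and CPM is the value divided by 10. Bowtie and build GRCm38 (mm10) are named per the submitters' processing notes, with no role or version, and the labels' protocols name frozen tissue, total RNA and Illumina libraries. In every library 100% of the values equalled a whole number of reads times 1 step, rounded down to a whole number, which gave the reads and depth used here. Without allowing for the rounding, 95% or more of the low values lay within 0.1 step of a whole multiple in 4 of the 27 libraries, those of AVP and CCK neurons. In the others 1 read is worth few units of the rounded scale, and reads, depths and limits rest on the rounding being as described. Samples were grouped by the labels alone, 0 columns were left without a group, and a miRNA not listed was taken as 0.

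limma 3.58.1 (R 4.3.3, trend method) was fitted to log2(value + 1), with 1 model each for tissues, neurons, CT18 and the time course, over miRNAs with a value of at least 100 in 2 libraries (3 in the time course). Two-sided p-values were adjusted with the Benjamini-Hochberg method, and 0.05 was the threshold. edgeR 4.0.16 and DESeq2 1.42.0 on the recovered reads, other scalings, pseudocounts, filters, a replicate block, models of 2 groups and leaving out each library were the alternatives. The rhythm fit had cosine and sine terms of 24 h and 8 residual degrees of freedom. Arm ratios were tested with limma for hairpins with both arms at 100 or more in 2 libraries, a test added after the values were seen. Permutation tests used 100000 resamples. Scripts were tested on simulated data, whose changes were balanced in direction and left out the most abundant miRNAs, so that shifts of composition were not covered.

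The members and the marker lists were chosen with earlier results of these data known. Named miRNAs were all members, the 3 miRNAs closest to each by Pearson's r over the 27 and over the 11 time course libraries, and up to 4 per list with the highest mean. The lists, all members found, held 11 other oligodendrocyte-lineage, 8 neuronal, 5 vascular, 7 microglial and leukocyte, 4 red cell and 7 choroid plexus and ciliated cell miRNAs.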

Additional observations from a re-analysis of the deposited data

How the results depend on the processing

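For single miRNAs, 317 values recomputed under the alternatives kept their direction and their side of the threshold, 20 lost a call, 18 gained 1 and 24 turned sign. Part of the 317 could not turn sign, since a rhythm amplitude is never negative and another filter leaves the limma log2 difference as it was. The calls of miR-219-5p in SCN, for which no p is used here, are counted as well. In SCN minus hypothalamus, quantile normalization gave -0.64 for miR-219-2-3p and -0.46 for miR-338-5p, no filter -0.74 and -0.66, edgeR -0.44 and -0.39, DESeq2 -0.38 and -0.33, and median-ratio scaling -0.45 and -0.37, all below the call, and the range without 1 library was -1.15 to -0.33 and -0.96 to -0.37. In SCN minus cortex, miR-219-2-3p was not called with quantile normalization (0.69), and leaving out 1 library gave 0.13 to 0.72 for miR-338-5p. In hypothalamus minus cortex, quantile normalization ended the calls of miR-219-5p (1.14), miR-338-3p (0.66) and miR-338-5p (0.65), no filter that of miR-219-5p (1.56), and leaving out 1 library gave 1.12 to 1.999 for miR-219-5p.

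In AVP minus VIP, calls were gained with quantile normalization (-3.70 for miR-338-3p and -7.84 for miR-338-5p), a pseudocount of 10 (-6.85 for miR-338-5p), the stricter filter of 500 (-8.54), edgeR (-6.07) and DESeq2 (-3.04 and -6.15). When 1 library was left out the range was -4.18 to -1.50 and -12.5 to -4.58. In AVP minus CCK they were gained with quantile normalization (-5.82 for miR-338-5p) and DESeq2 (-2.44 and -3.86); with 1 library left out the values were -4.50 to -1.82 and -11.0 to -3.10. In VIP minus CCK, miR-338-3p turned to 0.50 (median-ratio), 0.16 (quantile), 0.45 (edgeR) and 0.59 (DESeq2), with -0.97 to 0.33 when 1 library was left out, and miR-338-5p was called in a model of these groups alone (1.47). Calls over all miRNAs ran from 0 to 69 in AVP against CCK and from 1 to 92 in VIP against CCK when 1 library was left out, and were 28 and 35 with edgeR, and 56 in VIP against CCK with quantile normalization.

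Differences near 0 turned sign. At CT18, miR-219-2-3p and miR-338-3p were -0.0286 and -0.0481 (median-ratio), -0.0359 and -0.0756 (quantile), -0.0115 and -0.0407 (edgeR) and -0.0238 and -0.0513 (DESeq2). Leaving out 1 library there gave -9.2e-05 to 0.10 for miR-219-2-3p, -0.51 to 0.00836 for miR-219-5p, -0.13 to 0.18 for miR-338-3p and -0.19 to 0.10 for miR-338-5p. Day minus night for miR-219-5p was 0.000551 (pseudocount of 10), 0.0822 (edgeR), 0.0694 (DESeq2) and 0.15 (linear term for time), and for miR-338-3p 0.0255 (linear term). Arm ratios without 1 library were -0.25 to 0.47 (miR-219) and -0.18 to 0.11 (miR-338) in hypothalamus minus cortex, and -0.13 to 0.28 (miR-338) at CT18. Under median-ratio scaling r was -0.14 between the miR-219 arms and 0.12 between the miR-338 arms. The causes were not tested.

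Deviations of equal replicate numbers correlated between groups at -0.09 to 0.25. With only 2 numbers these values cannot settle whether the libraries were paired. With the number as a replicate block no call of a member or arm ratio changed, for example -0.74 (adjusted p = 0.011) for miR-219-2-3p in SCN minus hypothalamus, and calls in VIP against CCK moved to 46, against 91 without it. Depth limits miR-219-1-3p, at 20 reads or fewer, miR-219-5p in SCN, at 17 and 12 reads, and AVP neurons, at 91 and 22 reads of the miR-338 arms in all.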
